A study of Triticum aestivum with 12 samples.

Results

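Bread wheat carries 3 listed copies of ASY1, on chromosomes 5A, 5B and 5D, and 4 listed copies of ZIP4, on 3A, 3B, 3D and 5B. These 7 gene models, of 266760 in the count files, are all of the identifiers under these 2 names among the 209 gene models that the study listed as wheat orthologs of meiosis genes. They were followed in total RNA from anthers of 2 winter wheat genotypes, the heat-sensitive ‘Mv 17-09’ and the heat-tolerant ‘Ellvis’. The groups were ‘Mv 17-09’ after heat stress, ‘Mv 17-09’ control, ‘Ellvis’ after heat stress and ‘Ellvis’ control, with 3 libraries each. Heat stress was 24 h at 35 °C, control plants were not heated and were taken at the same developmental stage, and anthers were collected from main spikes at the end of the treatment. Each genotype stands for its class of heat response alone, so a cultivar difference cannot be told apart from any other difference between these 2 genotypes.

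ASY1 is a HORMA-domain protein of the meiotic chromosome axis, known in rice as PAIR2. It loads along the axis of the chromosomes in prophase and is needed for synapsis, the close alignment of homologous chromosomes, and for directing recombination to the homologue. ZIP4 is a protein of tetratricopeptide repeats that belongs to the ZMM group, which promotes class I crossovers and links recombination to the assembly of the synaptonemal complex. Wheat has, beside the ZIP4 copies on the group 3 chromosomes, a copy on 5B that lies in the Ph1 locus, which is known for promoting pairing and crossover between homologues rather than between related chromosomes.

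The annotation of the deposited gene models paired all 7 members with RefSeq entries on the same chromosome (assembly IWGSC CS RefSeq v2.1). The spans given below for each copy are those of its paired RefSeq entry, and the limits of the deposited gene model may differ. The 3 ASY1 copies were annotated as PAIR2-like, and the 4 ZIP4 copies as TPR repeat-containing proteins like ZIP4. ASY1-5A (TraesCS5A03G0702100) spans 494925053 to 494937488 on 5A. ASY1-5B (TraesCS5B03G0739200) spans 474265272 to 474277784 on 5B. ASY1-5D (TraesCS5D03G0668600) spans 393836864 to 393851140 on 5D. ZIP4-3A (TraesCS3A03G0941500) spans 647694018 to 647698057 on 3A, and ZIP4-3B (TraesCS3B03G1072500) spans 687752963 to 687756530 on 3B. ZIP4-3D (TraesCS3D03G0874500) spans 512030109 to 512033843 on 3D. The remaining copy, ZIP4-5B (TraesCS5B03G0662600), spans 440925174 to 440928762 on 5B. Copies of one family are similar in sequence and how reads matching several copies were assigned is not given in the sources used here, so a value for a single copy is less certain than the sum of a family.

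One library stood apart. ‘Ellvis’ control replicate 1 held 1831675 counts, against 9336312 to 20846135 in the other 11 libraries, and its 7 members rested on 4 to 34 counts each. Its marker sums also differed from the other 2 ‘Ellvis’ controls: 17 meiocyte marker genes summed to 46.8 CPM there, against 104 and 103 CPM, and 38 tapetum marker genes to 32182 CPM, against 15186 and 16161 CPM. CPM are counts scaled to library size, here with TMM factors, which adjust for differences in library composition.

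All 7 members passed the low-count filter. The heat effect in ‘Mv 17-09’ was tested by the edgeR quasi-likelihood test with Benjamini-Hochberg adjustment over 70527 genes, and a gene was called when its adjusted p was below 0.05 and its change at least 2-fold. In ‘Mv 17-09’, 2 of 7 members fell, ASY1-5B and ZIP4-3B, while 6.76% of all genes tested were called lower. By adjusted p alone, a rule chosen after seeing the data, 5 of 7 members were lower, against 11.3% of all genes. It was 3 of 7 when either control replicate 2 or heat-stressed replicate 1 of this cultivar was left out, against 7.90% and 8.19% of all genes. ASY1-5D and ZIP4-3D were then lost. The 2 exceptions with all libraries were ASY1-5A and ZIP4-5B. The same 5 copies had heat-stressed libraries below all controls in CPM, against 23.1% of all genes. By edgeR, DESeq2 and limma 0 of 7 were called higher, against 4.71% of all genes, or 8.88% by adjusted p alone. At an unadjusted p under 0.05, 0 of 7 had a higher value, against 15.1% of all genes. When ‘Mv 17-09’ control replicate 3 was left out, 4 of 7 members were called lower, against 4134 of 74056 genes tested, ZIP4-3A and ZIP4-3D being added.

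**Figure D1:**
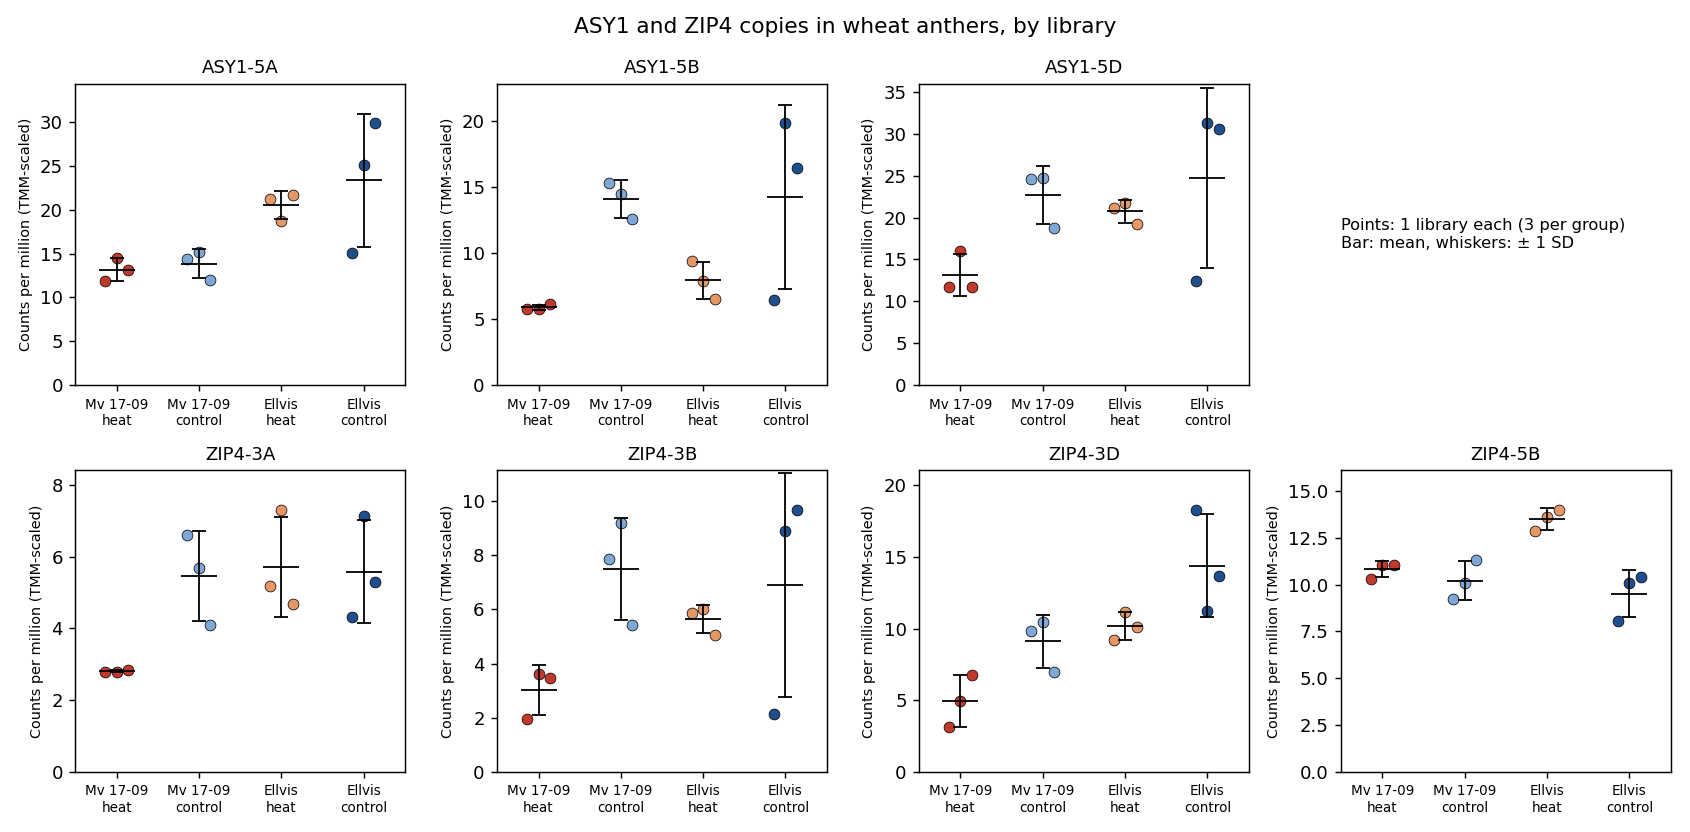
Level of each ASY1 and ZIP4 copy by library. The vertical axes give TMM-scaled CPM, each point is 1 library, and bars and whiskers are the mean ± 1 SD of 3 libraries; heat-stressed ‘Mv 17-09’ lies below its control without overlap for 5 copies and overlaps it for ASY1-5A and ZIP4-5B.

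ASY1-5B had 5.78, 5.79 and 6.12 CPM in heat-stressed ‘Mv 17-09’, against 15.3, 14.5 and 12.6 CPM in its controls. The groups did not overlap, and the 3 heat-stressed libraries lay close together. ASY1-5B fell 2.39-fold in ‘Mv 17-09’ (log2 fold change -1.26, approximate standard error (SE) 0.23, edgeR adjusted p = 0.000642), and the call held under every alternative tried. In ‘Ellvis’ it had 9.39, 7.87 and 6.54 CPM after heat stress, against 6.46, 19.9 and 16.5 CPM in the controls. The low control is the shallow library, with 12 counts, and the other 2 controls lay above all heat-stressed libraries. ASY1-5B fell 2.05-fold in ‘Ellvis’ (log2 fold change -1.03, SE 0.22, edgeR adjusted p = 0.00641), or by 1.23 on the log2 scale without the shallow library (edgeR adjusted p = 8.80e-08). This call lay at the 2-fold limit: it ended with library totals as the scale (-0.93 on the log2 scale), without the low-count filter (-0.97), with DESeq2 (-0.995) and with ‘Ellvis’ fitted alone (-1.02, edgeR adjusted p = 0.111). It also ended without ‘Ellvis’ control replicate 2 (-0.80, edgeR adjusted p = 0.0771), without ‘Ellvis’ control replicate 3 (-0.99, edgeR adjusted p = 0.0536) and without ‘Ellvis’ heat-stressed replicate 3 (-0.89, edgeR adjusted p = 0.0687).

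ASY1-5D had 11.7, 16.0 and 11.7 CPM in heat-stressed ‘Mv 17-09’, against 24.6, 24.7 and 18.7 CPM in its controls. The groups did not overlap, and the change stayed under 2-fold (log2 fold change -0.79, SE 0.22, edgeR adjusted p = 0.0186). In ‘Ellvis’ it had 21.2, 21.8 and 19.2 CPM after heat stress, against 12.4, 31.3 and 30.6 CPM in the controls. Here the heat-stressed libraries lay between the shallow control and the other 2 controls (log2 fold change -0.38, SE 0.22, edgeR adjusted p = 0.360). Without the shallow library the log2 fold change was -0.60 (edgeR adjusted p = 5.82e-04).

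ASY1-5A behaved unlike the copy on 5B in ‘Mv 17-09’: it had 11.9, 14.5 and 13.1 CPM after heat stress, against 14.4, 15.2 and 11.97 CPM in the controls. These ranges overlapped (log2 fold change -0.08, SE 0.18, edgeR adjusted p = 0.819), and with library totals as the scale the sign turned to 0.02. In ‘Ellvis’ ASY1-5A had 21.2, 18.7 and 21.7 CPM after heat stress, against 15.1, 25.1 and 29.9 CPM in the controls. The shallow control was again the lowest value (log2 fold change -0.28, SE 0.18, edgeR adjusted p = 0.407), and without it the log2 fold change was -0.44 (edgeR adjusted p = 0.00717).

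Summed over the 3 copies, ASY1 averaged 32.2 ± 3.66 CPM in heat-stressed ‘Mv 17-09’ and 50.6 ± 6.41 CPM in its controls (SD, n = 3 each). The highest heat-stressed library (36.3 CPM) lay below the lowest control (43.2 CPM). In ‘Ellvis’ the sum averaged 49.2 ± 2.29 CPM after heat stress and 62.4 ± 24.7 CPM in the controls, or 76.6 CPM in the controls without the shallow library. In bulk anthers, fewer cells of a type and less RNA per cell cannot be told apart.

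Among the ZIP4 copies, ZIP4-3B had 1.96, 3.62 and 3.48 CPM in heat-stressed ‘Mv 17-09’, against 7.85, 9.19 and 5.44 CPM in its controls. The groups did not overlap, and ZIP4-3B fell 2.49-fold (log2 fold change -1.32, SE 0.30, edgeR adjusted p = 0.00494); the call held under every alternative tried. These heat-stressed values rest on 19, 35 and 33 counts. In ‘Ellvis’ ZIP4-3B had 5.85, 6.03 and 5.05 CPM after heat stress, against 2.15, 8.91 and 9.69 CPM in the controls. The lowest of these came from 4 counts in the shallow library (log2 fold change -0.56, SE 0.27, edgeR adjusted p = 0.260), and without that library the log2 fold change was -0.74 (edgeR adjusted p = 0.00584).

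ZIP4-3A had 2.79, 2.79 and 2.85 CPM in heat-stressed ‘Mv 17-09’, against 6.60, 5.68 and 4.10 CPM in its controls. The groups did not overlap, and the change was just under 2-fold (log2 fold change -0.96, SE 0.25, edgeR adjusted p = 0.00937), and it passed without the low-count filter (-1.02) and without ‘Mv 17-09’ control replicate 3 (-1.14). In ‘Ellvis’ it had 5.17, 7.31 and 4.67 CPM after heat stress, against 4.30, 7.15 and 5.30 CPM in the controls. These groups overlapped throughout (log2 fold change -0.07, SE 0.22, edgeR adjusted p = 0.911), and the sign turned to 0.03 with library totals as the scale.

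ZIP4-3D had 3.10, 4.97 and 6.75 CPM in heat-stressed ‘Mv 17-09’, against 9.83, 10.5 and 6.98 CPM in its controls. The highest heat-stressed library came close to the lowest control, and the change was under 2-fold (log2 fold change -0.89, SE 0.24, edgeR adjusted p = 0.0123). It passed without ‘Mv 17-09’ control replicate 3 (-1.06) and when heat-stressed replicate 3 of this cultivar was left out (-1.19). In ‘Ellvis’ it had 9.19, 11.2 and 10.1 CPM after heat stress, against 18.3, 11.2 and 13.6 CPM in the controls. For this copy the shallow library gave the highest control value, unlike for the other members (log2 fold change -0.39, SE 0.22, edgeR adjusted p = 0.337), and without it the log2 fold change was -0.30 (edgeR adjusted p = 0.306).

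ZIP4-5B, the copy in the Ph1 region, had 10.3, 11.1 and 11.1 CPM in heat-stressed ‘Mv 17-09’, against 9.24, 10.1 and 11.3 CPM in its controls. The groups overlapped (log2 fold change 0.08, SE 0.14, edgeR adjusted p = 0.734). In ‘Ellvis’ it had 12.9, 13.6 and 14.01 CPM after heat stress, against 8.07, 10.1 and 10.4 CPM in the controls. All 3 heat-stressed libraries lay above all controls, with a change of 1.36-fold that missed the threshold (log2 fold change 0.44, SE 0.14, edgeR adjusted p = 0.0692). Without the shallow library the log2 fold change was 0.38 (edgeR adjusted p = 0.0382).

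In ‘Ellvis’ as a whole 1 of 7 members, ASY1-5B, was called lower, against 1.54% of all genes tested, and 1 of 7 was lower by adjusted p alone, against 3.42%. By edgeR, DESeq2 and limma 0 of 7 were called higher in ‘Ellvis’, against 2.08% of all genes (3.63% by adjusted p alone). At an unadjusted p under 0.05, 1 of 7, ZIP4-5B, had a higher value, against 10.9% of all genes. Without the shallow library 4 of 7 were lower by adjusted p alone, against 10.7% of all genes, namely the 3 ASY1 copies and ZIP4-3B, and 1 of 7, ZIP4-5B, was higher, against 8.88%. By the same rule 0 of 7 were lower when ‘Ellvis’ control replicate 2, control replicate 3 or heat-stressed replicate 3 was the one left out. In these fits 1.96%, 1.43% and 1.43% of all genes were lower, so fewer genes passed altogether.

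**Figure D2:**
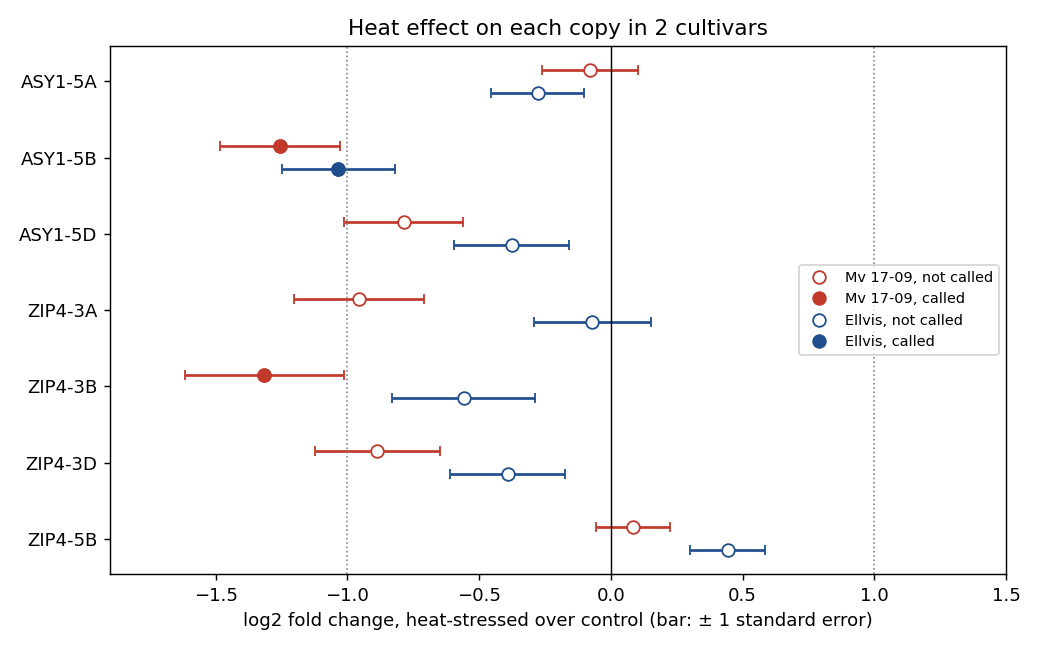
Heat effect on each copy. The horizontal axis is the log2 fold change of heat-stressed over control anthers with its standard error, filled points were called, and dotted lines mark a 2-fold change; ASY1-5B was called in both cultivars and ZIP4-3B in ‘Mv 17-09’ alone, with no member passing the test of the difference between cultivars.

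The heat effects of both cultivars were then set against each other in 1 contrast (‘Mv 17-09’ minus ‘Ellvis’). By edgeR, DESeq2 and limma 0 of 7 members were called, against 3.88% of all genes called lower and 1.42% called higher, or 4.42% and 1.83% by adjusted p alone. At an unadjusted p under 0.05, 1 of 7 was lower, against 11.7% of all genes lower and 7.55% higher. It was ZIP4-3A, with a difference of -0.89 on the log2 scale (SE 0.33, edgeR adjusted p = 0.136). The differences were -0.76 for ZIP4-3B (SE 0.41, edgeR adjusted p = 0.336) and -0.50 for ZIP4-3D (SE 0.32, edgeR adjusted p = 0.444). The call of ZIP4-3B, made in ‘Mv 17-09’ alone, was thus not shown to be particular to that cultivar. For ASY1-5B, called in both cultivars, the difference was -0.22 (SE 0.31, edgeR adjusted p = 0.771). With the shallow library left out 0 of 7 passed, against 5296 of 73743 genes called lower and 1823 called higher. By adjusted p alone it was also 0 of 7, against 10.1% and 6.33%. The difference in that fit was -0.82 for ZIP4-3A (edgeR adjusted p = 0.0652), -0.59 for ZIP4-3B, -0.60 for ZIP4-3D and -0.044 for ASY1-5B.

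The ZIP4 copy on 5B was compared with the copies on group 3 within each library, as the ratio of its counts to the summed counts of ZIP4-3A, ZIP4-3B and ZIP4-3D, with 0.5 added to each side. Such a ratio needs no scaling between libraries, and its change between groups does not depend on gene length. The ratio was 1.31, 0.973 and 0.847 in heat-stressed ‘Mv 17-09’, against 0.381, 0.398 and 0.687 in its controls. In ‘Ellvis’ it was 0.637, 0.556 and 0.707 after heat stress, against 0.333, 0.371 and 0.364 in the controls. Every heat-stressed library lay above every control of its cultivar, the shallow library included. Over both cultivars the log2 ratio was 0.98 higher after heat stress, a 1.97-fold shift (exact permutation test within cultivars, two-sided, p = 0.005, which is the smallest that 400 arrangements allow; adjusted p = 0.00667 over 4 ratio tests). Within a cultivar the log2 ratio was 1.13 higher in ‘Mv 17-09’ and 0.83 higher in ‘Ellvis’ after heat stress (exact permutation test, p = 0.1 in each, the smallest that 20 arrangements allow). Without the shallow library the difference in ‘Ellvis’ was 0.78. The ratio was also higher in ‘Mv 17-09’ than in ‘Ellvis’, by 0.55 on the log2 scale within treatments (exact permutation test, p = 0.005, the smallest possible; adjusted p = 0.00667).

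As a share of all ZIP4 counts, which also depends on the lengths of the copies, the copy on 5B took 50.7% ± 5.61 in heat-stressed ‘Mv 17-09’ and 32.2% ± 7.34 in its controls (SD, n = 3 each). In ‘Ellvis’ it took 38.7% ± 2.84 after heat stress and 26.1% ± 1.30 in the controls. The shift went with lower values of the group 3 copies in ‘Mv 17-09’, whose sum averaged 10.8 ± 2.67 CPM after heat stress and 22.0 ± 4.82 CPM in the controls. In ‘Ellvis’ the same sum averaged 21.5 ± 2.59 CPM after heat stress and 26.9 ± 1.97 CPM in the controls, beside the higher values of ZIP4-5B given above.

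**Figure D3:**
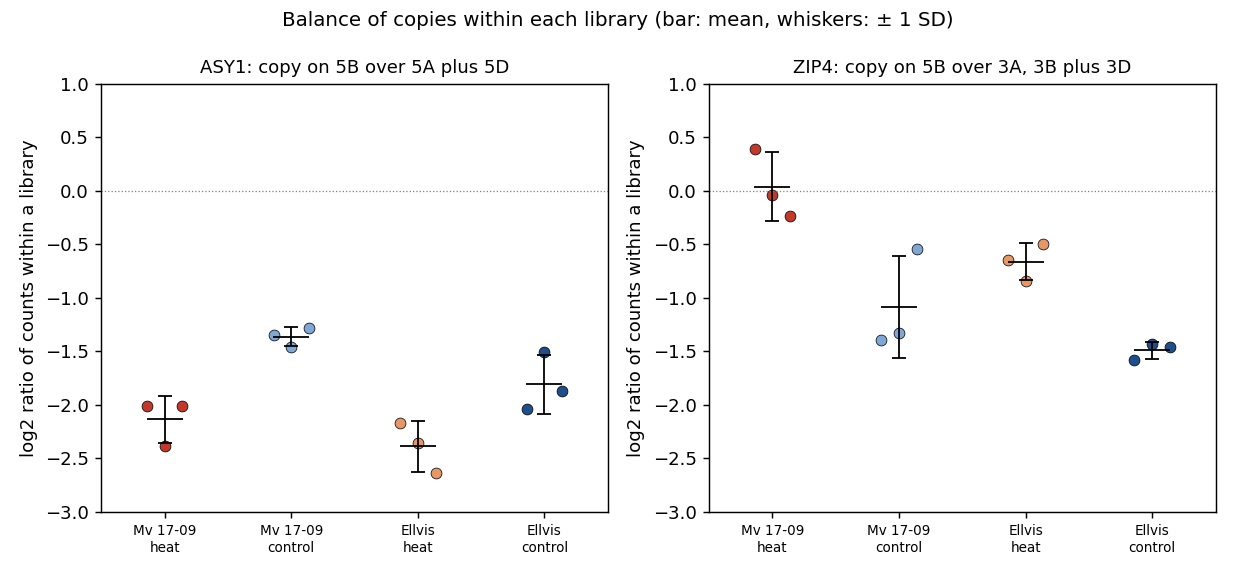
Balance of the copies within each library. The vertical axis is the log2 ratio of counts of the 5B copy to the other copies of its family, each point is 1 library, and bars and whiskers are the mean ± 1 SD of 3 libraries; in both cultivars the heat-stressed libraries lie below the controls for ASY1 and above them for ZIP4.

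For ASY1 the same comparison went the other way. The ratio of ASY1-5B to ASY1-5A plus ASY1-5D was 0.247, 0.191 and 0.248 in heat-stressed ‘Mv 17-09’, against 0.393, 0.363 and 0.410 in its controls. In ‘Ellvis’ it was 0.222, 0.195 and 0.160 after heat stress, against 0.243, 0.352 and 0.273 in the controls. The groups did not overlap in either cultivar. Over both cultivars the log2 ratio fell by 0.68 after heat stress, a 1.60-fold shift (exact permutation test within cultivars, two-sided, p = 0.005, the smallest possible; adjusted p = 0.00667). The log2 difference was -0.77 in ‘Mv 17-09’ and -0.58 in ‘Ellvis’, or -0.70 in ‘Ellvis’ without the shallow library. Between cultivars the log2 ratio was 0.35 higher in ‘Mv 17-09’ than in ‘Ellvis’ (exact permutation test within treatments, p = 0.025, adjusted p = 0.025). That cultivar difference no longer passed when any one of 5 libraries was left out (‘Ellvis’ heat-stressed replicate 3, ‘Mv 17-09’ control replicate 1 or 3, or ‘Mv 17-09’ heat-stressed replicate 1 or 3; differences of 0.28 to 0.34, adjusted p = 0.055 to 0.07 by the exact permutation test). Whether either ratio shifted more in one cultivar than in the other was not tested. The pooled ASY1 copies did not move alike in ‘Mv 17-09’. ASY1-5A took 40.9% ± 1.27 of ASY1 counts after heat stress and 27.4% ± 0.807 in the controls (SD, n = 3 each). ASY1-5D took 40.6% ± 3.22 and 44.7% ± 1.21, with overlapping ranges. In ‘Ellvis’ ASY1-5A took 41.8% ± 3.58 and 38.7% ± 5.75, and ASY1-5D 42.1% ± 2.52 and 39.1% ± 2.33.

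In control anthers, ‘Mv 17-09’ was set against ‘Ellvis’. By edgeR, DESeq2 and limma 0 of 7 members were called in either direction, against 6.90% of all genes called lower and 5.83% called higher in ‘Mv 17-09’. By adjusted p alone 1 of 7 was lower, against 9.95% of all genes lower and 9.19% higher. At an unadjusted p under 0.05, 2 of 7 were lower, against 15.7% of all genes. These were ASY1-5A, which averaged 13.9 ± 1.69 CPM in ‘Mv 17-09’ and 23.4 ± 7.58 CPM in ‘Ellvis’ (SD, n = 3 each; log2 difference -0.84, SE 0.18, edgeR adjusted p = 0.00195, under 2-fold), and ZIP4-3D (log2 difference -0.55, SE 0.22, edgeR adjusted p = 0.0941). The other 5 copies differed by -0.25 to 0.04 on the log2 scale. When the shallow library was left out, 3 of 7 were lower in ‘Mv 17-09’ controls by adjusted p alone, against 14.2% of all genes, all under 2-fold. These were ASY1-5A (-0.98, adjusted p = 7.04e-08), ASY1-5B (-0.36, adjusted p = 0.0446) and ASY1-5D (-0.44, adjusted p = 0.00595) by edgeR.

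After heat stress, 2 of 7 members were called lower in ‘Mv 17-09’ than in ‘Ellvis’, against 13.3% of all genes tested, and by adjusted p alone 5 of 7 were lower, against 18.9%. The count by adjusted p alone was 2 if heat-stressed ‘Mv 17-09’ replicate 1 was left out, against 14.4% of all genes. It was 3 if the library left out was heat-stressed ‘Mv 17-09’ replicate 3, replicate 1 of its controls or any one of the heat-stressed ‘Ellvis’ libraries. In those fits 14.9% to 17.2% of all genes were lower. Other settings raised the count. Without the shallow library 7 of 7 were lower by adjusted p alone, against 24.1% of all genes. With library totals, the likelihood ratio test or limma, 6 of 7 were lower by this rule. In each of these settings the share of all genes lower was also above 18.9%. ZIP4-3A averaged 2.81 ± 0.034 CPM in ‘Mv 17-09’ and 5.72 ± 1.40 CPM in ‘Ellvis’ (SD, n = 3 each; log2 difference -1.03, SE 0.24, edgeR adjusted p = 0.00318). ZIP4-3D averaged 4.94 ± 1.83 CPM in ‘Mv 17-09’ and 10.2 ± 0.987 CPM in ‘Ellvis’ (log2 difference -1.04, SE 0.24, edgeR adjusted p = 0.00214). ZIP4-3B (-0.90), ASY1-5D (-0.66) and ASY1-5A (-0.64) were lower at an adjusted p of 0.0331, 0.0319 and 0.00959 by edgeR, under 2-fold. ASY1-5B differed by -0.42 (edgeR adjusted p = 0.185) and ZIP4-5B by -0.32 (edgeR adjusted p = 0.0828). By edgeR, DESeq2 and limma 0 of 7 were called higher in ‘Mv 17-09’, against 8.45% of all genes (14.5% by adjusted p alone). At an unadjusted p under 0.05, 0 of 7 had a higher value, against 19.1% of all genes. Both calls lay at the 2-fold limit: 0 were called without ‘Ellvis’ heat-stressed replicate 2, 1 without ‘Mv 17-09’ heat-stressed replicate 1, and 1 with DESeq2 or with RLE scaling. In these fits, in the same order, 8495 of 73637, 8249 of 75395, 8716 of 70527 and 9005 of 70527 genes were called lower.

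The order of the 4 groups by mean CPM put heat-stressed ‘Mv 17-09’ lowest for 6 of the 7 copies, against 30.7% of all genes, and clear of the next group for 5 of these, against 11.1%. The exception in order was ZIP4-5B, lowest in ‘Ellvis’ controls, and the overlapping copy was ASY1-5A, whose heat-stressed and control ‘Mv 17-09’ libraries overlapped each other but lay below the ‘Ellvis’ libraries other than the shallow control. For ASY1-5D and ZIP4-3B the shallow ‘Ellvis’ control fell within the range of heat-stressed ‘Mv 17-09’. For ASY1-5B both heat-stressed groups came first, with no overlap between them (5.90 ± 0.192 CPM in ‘Mv 17-09’ and 7.93 ± 1.43 CPM in ‘Ellvis’), followed by the ‘Mv 17-09’ and ‘Ellvis’ controls, which overlapped. For ZIP4-3A the other 3 groups overlapped. For ZIP4-5B heat-stressed ‘Ellvis’ came highest, clear of the other 3 groups, which overlapped.

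Meiotic cells were followed through 17 marker genes, copies of DMC1, SYN1, SPO11-1, MSH4, MSH5 and PTD, none of which was at 0 in all libraries. Their summed level averaged 100.3 ± 2.49 CPM in heat-stressed ‘Mv 17-09’ and 83.5 ± 3.56 CPM in its controls (ranges 97.6 to 103 and 79.6 to 86.6 CPM), and 89.4 ± 2.23 CPM in heat-stressed ‘Ellvis’ and 84.6 ± 32.7 CPM in its controls (ranges 87.8 to 92.0 and 46.8 to 104 CPM). Without the shallow library the ‘Ellvis’ controls averaged 103.5 CPM and both lay above all 3 heat-stressed ‘Ellvis’ libraries. Of the 16 tested, 2 rose and 0 fell in ‘Mv 17-09’, against 4.71% and 6.76% of all genes. The sum was thus higher in heat-stressed ‘Mv 17-09’ than in its controls without overlap, where 5 ASY1 and ZIP4 copies were lower. A large part of this rise came from 1 marker that was not called, SPO11-1 on 5B. It averaged 25.3 CPM after heat stress and 17.9 CPM in the controls (edgeR adjusted p = 0.269). The marker sum therefore leans on that gene. Set against this sum in each library, 6 of 7 copies were lower in heat-stressed ‘Mv 17-09’ than in its controls with no overlap, against 36.9% of all genes, with log2 differences of -0.34 (ASY1-5A) to -1.60 (ZIP4-3B), and ZIP4-5B overlapped. In ‘Ellvis’ the log2 differences relative to the markers were -0.88 for ASY1-5B, -0.31 for ASY1-5D and -0.30 for ASY1-5A, or -0.99, -0.37 and -0.21 without the shallow library. With all libraries, heat-stressed ‘Ellvis’ also lay below its controls without overlap for each ASY1 copy, while each ZIP4 copy overlapped. The share of all genes that did so in ‘Ellvis’ was not computed. For the ZIP4 copies in ‘Ellvis’ they were -0.13 (3A), -0.19 (3B), -0.65 (3D) and 0.34 (5B), or 0.078, -0.51, -0.076 and 0.61 without that library.

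Markers of the tapetum, the nutritive layer around the meiocytes, moved with treatment as well. Their 38 genes summed to 5518 ± 703 CPM in heat-stressed ‘Mv 17-09’ and 19851 ± 1412 CPM in its controls (ranges 4833 to 6237 and 18522 to 21334 CPM). In ‘Mv 17-09’ 36 of the 36 tested fell, against 6.76% of all genes, with 2 at 0 in every library. In ‘Ellvis’ they summed to 16354 ± 1420 CPM after heat stress and 21176 ± 9543 CPM in the controls (ranges 14749 to 17447 and 15186 to 32182 CPM), or 15673 CPM in the controls without the shallow library. Here 0 of 36 were called, against 2.08% of all genes called higher and 1.54% lower. The part of such shifts in the values of ASY1 and ZIP4 was not tested.

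**Figure D4:**
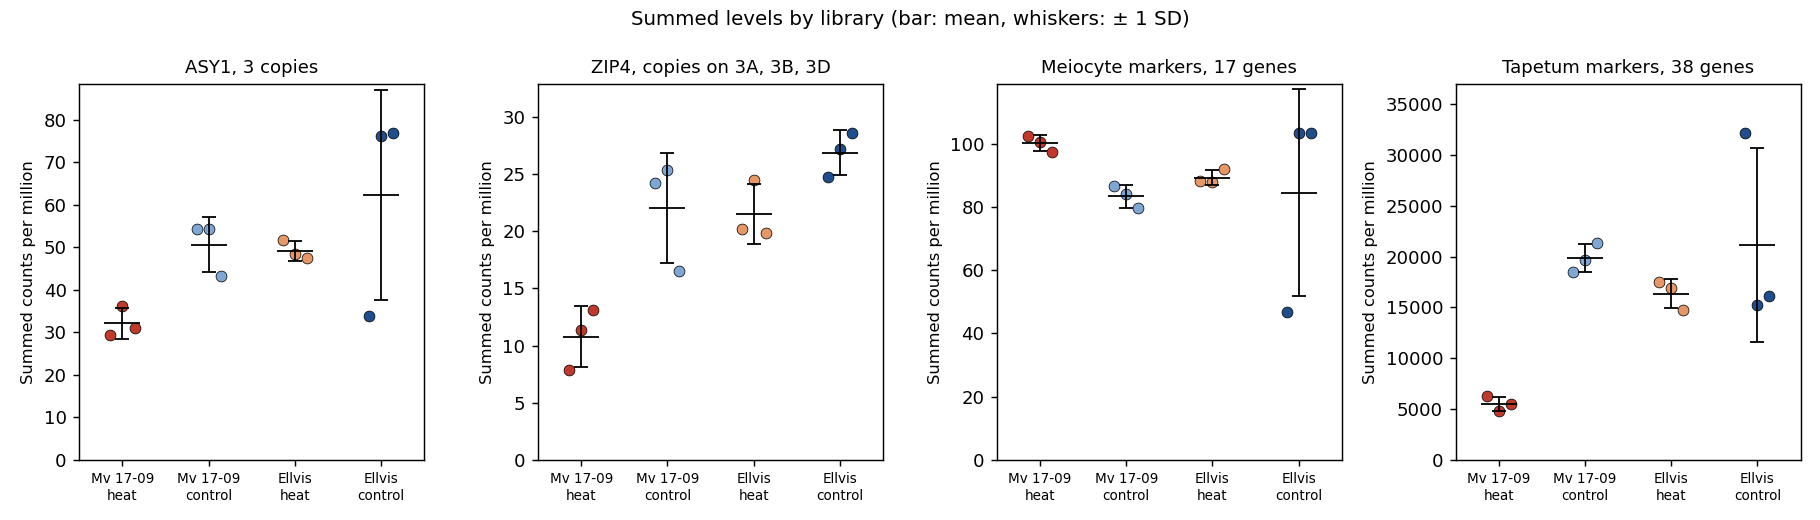
Summed levels of the ASY1 copies, the group 3 ZIP4 copies, the meiocyte markers and the tapetum markers. The vertical axes give summed TMM-scaled CPM, each point is 1 library, and bars and whiskers are the mean ± 1 SD of 3 libraries; in ‘Mv 17-09’ heat-stressed libraries lie below the controls for ASY1, ZIP4 and tapetum markers and above them for meiocyte markers.

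The other genes of the pathway were taken as 45 gene models of 15 families in 4 roles, of which 41 passed the low-count filter. Of these, 3 rose and 0 fell by edgeR in ‘Mv 17-09’, where 4.71% of all genes were called higher and 6.76% lower. At an unadjusted p under 0.05, 7 of the 41 were lower, against 17.2% of all genes. The pathway had a median log2 fold change of 0.05, beside 0.00 over all genes tested. DESeq2 called 1 higher and 0 lower, and limma 3 higher and 0 lower. In ‘Ellvis’ 0 rose and 0 fell by edgeR where 2.08% of all genes were called higher and 1.54% lower, while DESeq2 called 0 and limma 1 lower. At an unadjusted p under 0.05, 2 of the 41 were higher and 10 lower in ‘Ellvis’, against 10.9% and 9.55% of all genes, and the median was -0.16, beside 0.02 over all genes.

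Among axis and cohesion genes, the proteins that ASY1 joins on the chromosome axis, 0 of 13 tested were called in either cultivar by edgeR, DESeq2 or limma, with medians of -0.40 in ‘Mv 17-09’ and -0.23 in ‘Ellvis’. At an unadjusted p under 0.05, 7 of the 13 were lower in ‘Mv 17-09’ and 4 in ‘Ellvis’, against 17.2% and 9.55% of all genes. The copy with the highest mean CPM, not scaled for length, in this role was an SCC3 gene, TraesCSU03G0252500, which encodes a cohesin subunit. It averaged 71.8 ± 1.87 CPM in heat-stressed ‘Mv 17-09’ and 102.9 ± 8.16 CPM in its controls (log2 fold change -0.52, SE 0.15, edgeR adjusted p = 0.0208, under 2-fold). Among genes for the formation of double-strand breaks, which start recombination, 0 of 9 were called in either cultivar by edgeR, DESeq2 or limma. At an unadjusted p under 0.05 there were 0 in ‘Mv 17-09’, against 15.1% of all genes higher and 17.2% lower. In ‘Ellvis’ 1 of the 9 was lower by that rule, against 9.55% of all genes. SPO11-1 on 5B (TraesCS5B03G0985500), the break-forming enzyme, averaged 25.3 ± 0.820 CPM in heat-stressed ‘Mv 17-09’ and 17.9 ± 0.506 CPM in its controls (log2 fold change 0.50, SE 0.29, edgeR adjusted p = 0.269). When 1 library was left out, its edgeR adjusted p in ‘Mv 17-09’ ranged from 0.00175 to 0.459.

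Strand invasion, the step at which a broken end seeks its partner, was represented by 6 tested genes. Of these 2 rose in ‘Mv 17-09’, against 4.71% of all genes. DMC1 on 5A (TraesCS5A03G0375300), a recombinase of meiosis, averaged 2.57 ± 0.945 CPM in heat-stressed ‘Mv 17-09’ and 0.683 ± 0.0770 CPM in its controls (log2 fold change 1.90, SE 0.35, edgeR adjusted p = 0.000608). AHP2 on 4D (TraesCS4D03G0079200), whose product aids DMC1, averaged 1.07 ± 0.526 CPM in heat-stressed ‘Mv 17-09’ and 0.325 ± 0.0689 CPM in its controls (log2 fold change 1.71, SE 0.57, edgeR adjusted p = 0.0405). In ‘Ellvis’ 0 of the 6 were called by edgeR, DESeq2 or limma, with 2 higher at an unadjusted p under 0.05, against 10.9% of all genes. DMC1 on 5D (TraesCS5D03G0353500), with the highest mean of this role, averaged 6.98 ± 1.16 CPM in heat-stressed ‘Mv 17-09’ and 4.73 ± 0.185 CPM in its controls (log2 fold change 0.56, SE 0.18, edgeR adjusted p = 0.0343, under 2-fold).

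Of the class I crossover genes, the partners of ZIP4, 1 of 13 tested rose in ‘Mv 17-09’ by edgeR, against 4.71% of all genes. In ‘Ellvis’ 0 were called by edgeR, and the medians were 0.14 in ‘Mv 17-09’ and -0.40 in ‘Ellvis’. In ‘Ellvis’ 5 of the 13 were lower at an unadjusted p under 0.05, against 9.55% of all genes, and limma called 1 of the 13 lower. The gene that rose was PTD on 2B (TraesCS2B03G0224500), named because the count was small and after its value was seen (log2 fold change 1.499, SE 0.49, edgeR adjusted p = 0.0375, from means of 1.25 CPM after heat stress and 0.433 CPM in the controls). MLH3 on 5B (TraesCS5B03G0890500), a protein that resolves crossovers, had the highest mean of the role and averaged 10.7 ± 1.62 CPM in heat-stressed ‘Mv 17-09’ and 10.4 ± 1.14 CPM in its controls. In ‘Ellvis’ it averaged 9.65 ± 0.949 CPM after heat stress and 13.8 ± 3.58 CPM in the controls (log2 fold change -0.62, SE 0.17, edgeR adjusted p = 0.0310, under 2-fold). In this role the tested copies of MSH4, MSH5 and MER3, with which ZIP4 forms the ZMM group, all missed the threshold by edgeR. By adjusted p alone, MSH4 on 2A (TraesCS2A03G0357500) was lower in ‘Ellvis’ (log2 fold change -0.69, SE 0.17, edgeR adjusted p = 0.0178, under 2-fold). The same held for MLH3 on 5A (TraesCS5A03G0848900, log2 fold change -0.57, SE 0.16, edgeR adjusted p = 0.0382). By this rule 3.42% of all genes were lower in ‘Ellvis’. The calls of AHP2 and PTD were near the threshold: with ‘Mv 17-09’ control replicate 1, 2 or 3 or ‘Mv 17-09’ heat-stressed replicate 1 left out, 1 of the 41 pathway genes was called higher in place of 3. Of all genes, 2606 of 74008, 2469 of 74100, 2754 of 74056 and 2771 of 75395 were called higher in those fits. Without ‘Ellvis’ control replicate 1 there was 1 pathway gene called higher and 1 called lower in ‘Ellvis’, against 3203 and 1595 of 73743 genes.

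**Figure D5:**
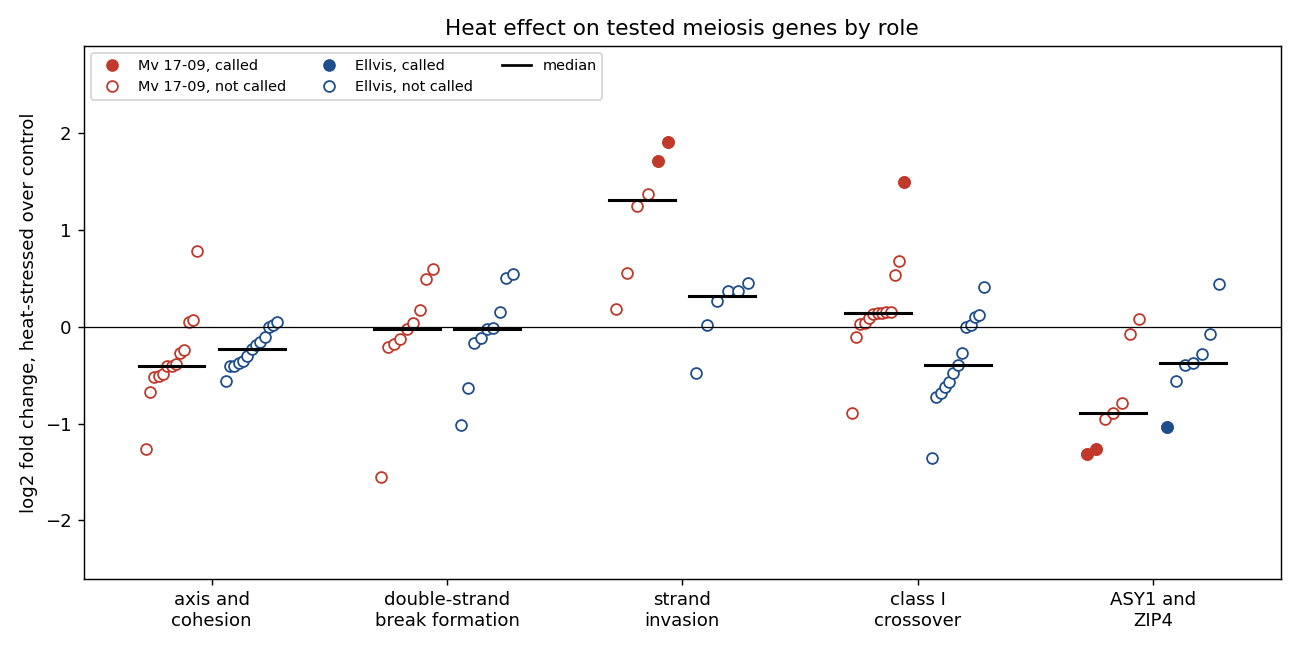
Heat effect on tested meiosis genes by role, beside the 7 ASY1 and ZIP4 copies. The vertical axis is the log2 fold change of heat-stressed over control anthers, each point is 1 gene, filled points were called and black bars are medians; 3 of 41 pathway genes were called in ‘Mv 17-09’ and 0 of 41 in ‘Ellvis’.

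Across the 12 libraries, the level of ASY1-5B on the log2 CPM scale was most like that of SYN2 on 2D (TraesCS2D03G0790300, Pearson r = 0.967), an SCC3 copy on 4A (TraesCS4A03G0366600, r = 0.945) and a kinesin ATK copy on 2B (TraesCS2B03G1270000, r = 0.944) among 149 tested genes of the meiosis list outside its family. Over 11 libraries without the shallow one, r was 0.965, 0.948 and 0.941. ASY1-5D ranked 553 in likeness among 70526 other genes (r = 0.871) and ASY1-5A ranked 11929 (r = 0.450), or 1532 and 15929 over 11 libraries (r = 0.865 and 0.435). The genes most like ZIP4-5B were XRCC3 on 6A (TraesCS6A03G0530700, r = 0.778) and DMC1 on 5D (TraesCS5D03G0353500, r = 0.746) and 5B (TraesCS5B03G0364100, r = 0.739), or r = 0.634, 0.715 and 0.549 over 11 libraries. Its own family was not alike: r with ZIP4-3A, ZIP4-3B and ZIP4-3D was 0.059, 0.17 and -0.20 over 12 libraries, and 0.023, -0.18 and 0.13 over 11. ZIP4-3D was most like a CDC45 copy on 5B (TraesCS5B03G0392200, r = 0.892), a CDC45 copy on 4D (TraesCS4D03G0246400, r = 0.788) and MUS81 on 3A (TraesCS3A03G0452900, r = 0.769) among 148 such genes, or r = 0.859, 0.715 and 0.709 over 11 libraries. Among the group 3 copies, ZIP4-3D had r = 0.695 with ZIP4-3A and 0.446 with ZIP4-3B over 12 libraries, and r = 0.839 and 0.919 over 11. These correlations describe points that share 4 groups and one depth scale, so they carry no test.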

How the data were processed

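RNA from anthers of ‘Mv 17-09’ and ‘Ellvis’ was sequenced as 12 libraries in 4 groups of 3, grouped by cultivar and stress label. The study describes biological replicates, and the labels do not say which plants made up each library, so p-values measure the spread between these samples. Each gene had 1 estimate of this spread over all groups, so p-values in ‘Mv 17-09’ also rest on the ‘Ellvis’ libraries. The coefficient of variation between replicates was 0.388 in ‘Ellvis’ controls and 0.0849 to 0.126 in the other groups. Without ‘Ellvis’ control replicate 1, ASY1-5D in ‘Mv 17-09’ had an edgeR adjusted p of 6.82e-06 in place of 0.0186. The authors checked reads with FastQC 0.11.8, trimmed and used CLC Genomics Workbench to map them to the IWGSC RefSeq v2.1 genome, and deposited whole-number counts per gene model. The strand setting and the treatment of reads that match several copies were not given in the labels or methods used here. From the deposited counts, genes were filtered with filterByExpr (minimum count 10, minimum total 15), scaled by TMM and tested with the edgeR 4.0.16 quasi-likelihood test in R 4.3.3, in 1 fit of all libraries, with Benjamini-Hochberg adjustment over 70527 genes. Calls needed an adjusted p below 0.05 and a 2-fold change. Standard errors are approximate, being the log2 fold change divided by the square root of F. Ratios of copies were compared by exact permutation tests, and correlations used a prior count of 2. The fits were tested on simulated data. Alternatives were RLE scaling, library totals, no filter, DESeq2 1.42.0, the edgeR likelihood ratio test, limma 3.58.1 (voom with sample weights), a replicate block, each cultivar fitted alone, leaving out each library, and, for ratios, 1 added count or counts summed over a group.

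The text names all 7 members, the pathway gene with the highest mean in each role, up to 2 pathway genes called in each direction and cultivar with the largest change, and the 3 genes most like ASY1-5B, ZIP4-5B and ZIP4-3D. Beyond these, PTD on 2B, MSH4 on 2A and MLH3 on 5A were named after their values were seen. The members, lists and tests were chosen with earlier results of these data known, and the lists come from the study's tables of meiosis and tapetum genes. The meiocyte markers are part of the pathway list. Some genes of the meiosis table, 1 family of the pathway list among them, are not reported here and were left out of the pathway counts, the pathway medians and the search for similar patterns. Depth was 1831675 counts in one library and 9336312 to 20846135 in the other 11. No transcript lengths were used, so shares of family counts and the choice of the highest mean CPM in a role also depend on gene length and do not rank genes by transcript number.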

Additional observations from a re-analysis of the deposited data

Results flagged for a closer look

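For 1 of the named pathway genes the heat effect differed between the cultivars by the test of the difference itself (‘Mv 17-09’ minus ‘Ellvis’). Of the 41 tested pathway genes 1 was called higher and 0 lower in this contrast, against 1.42% and 3.88% of all genes. The gene had been named for its call in ‘Mv 17-09’, which is 1 side of the contrast. DMC1 on 5A (TraesCS5A03G0375300) had a log2 difference of 1.63 (SE 0.48, edgeR adjusted p = 0.0474), and over its alternatives 1.37 to 1.90 (adjusted p = 0.0130 to 0.187). Its means were 2.57 ± 0.945 CPM in heat-stressed ‘Mv 17-09’ and 0.683 ± 0.0770 CPM in its controls, and 2.21 ± 0.341 CPM in heat-stressed ‘Ellvis’ and 1.92 ± 0.443 CPM in its controls (SD, n = 3 each). Between controls it was called lower in ‘Mv 17-09’ than in ‘Ellvis’ (log2 difference -1.41, SE 0.37, edgeR adjusted p = 0.00939). After heat stress that difference was 0.22 (SE 0.30, edgeR adjusted p = 0.612). The gene is low in counts and has similar copies.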

How the results depend on the processing

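The values below are those that lost or gained a call or changed sign under another setting; the cause was not tested except where a setting leaves out libraries. Members called lower in ‘Mv 17-09’ numbered 2 to 4 when 1 library was left out, and 5 by adjusted p alone. In the fits with 1 library left out, 4034 of 74100 to 6152 of 73743 genes were called lower. By adjusted p alone 11.3% of all genes were lower with all libraries. In ‘Ellvis’ the members called lower numbered 0 with library totals, without the filter, with DESeq2 or with the cultivar fitted alone. Genes called lower in these settings were 817 of 70527, 1503 of 185812, 1314 of 70527 and 625 of 64173. When 1 library was left out the members numbered 0 to 1, against 721 of 73908 to 1595 of 73743 genes. After heat stress, members called lower in ‘Mv 17-09’ than in ‘Ellvis’ numbered 1 with RLE or DESeq2, against 9005 and 8716 of 70527 genes. They numbered 0 to 2 when 1 library was left out, against 8249 of 75395 to 11051 of 73743 genes. By adjusted p alone they numbered 5, against 18.9% of all genes. That rule also gave 1 in controls in place of 0, against 9.95% of all genes. Pathway genes called in ‘Mv 17-09’ numbered 1 to 4 higher and 0 lower when 1 library was left out, and in ‘Ellvis’ 0 to 1 higher and 0 to 1 lower. Of all genes, 2469 of 74100 to 4516 of 73743 were called higher in ‘Mv 17-09’ in these fits. In ‘Ellvis’ 821 of 73997 to 3203 of 73743 were called higher, with the range of lower calls given above. The difference in the ASY1 ratio between cultivars was 0.28 to 0.42 (adjusted p = 0.015 to 0.07, exact permutation test) when 1 library was left out. The other 3 ratio comparisons kept their direction and call under every alternative with a test.

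Signs changed only for log2 values that had not been called. With library totals these were ASY1-5A in ‘Mv 17-09’ (0.022), ZIP4-3A in ‘Ellvis’ (0.033) and ZIP4-5B between controls (-0.027, and -0.0062 with limma). The median log2 change of all genes with library totals was 0.10 in ‘Mv 17-09’ and 0.12 in ‘Ellvis’, beside 0.00 and 0.02 with TMM. The share of calls that were higher was then 50.6% in ‘Mv 17-09’ and 70.3% in ‘Ellvis’, beside 41.1% and 57.4% with TMM, and 45.9% in ‘Ellvis’ with DESeq2. When 1 library was left out, ranges crossed 0 for ZIP4-3A in ‘Ellvis’ (-0.28 to 0.15), for ASY1-5A in the difference between heat effects (-0.023 to 0.35), and between controls for ASY1-5B (-0.36 to 0.058), ZIP4-3A (-0.28 to 0.11), ZIP4-3B (-0.30 to 0.055) and ZIP4-5B (-0.031 to 0.12). The same held for MLH3 on 5B in ‘Mv 17-09’ (-0.099 to 0.12, and -0.023 without the filter), and in ‘Ellvis’ for SPO11-1 on 5B (-0.35 to 0.15, with 0.0060 by DESeq2 and 0.018 by the likelihood ratio test), DMC1 on 5A (-0.0088 to 0.52) and AHP2 on 4D (-0.0020 to 0.86).

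Most same-numbered libraries did not deviate together (1 of 18 pairs had a correlation over 0.1, range -0.053 to 0.18). Heat-stressed and control ‘Ellvis’ libraries of the same number had correlations of 0.18, 0.098 and 0.080. Those of unlike number had -0.18 to 0.086. Whether the numbers pair samples within ‘Ellvis’ is therefore not settled. With a replicate block, ASY1-5B was -1.25 in ‘Mv 17-09’ (edgeR adjusted p = 0.00177) and -1.02 in ‘Ellvis’ (adjusted p = 0.0180), ZIP4-3B was -1.32 in ‘Mv 17-09’ (adjusted p = 0.00639), and no call of a member changed. The calls of AHP2 on 4D and PTD on 2B in ‘Mv 17-09’, and of the difference between cultivars for DMC1 on 5A, were lost with the block. The members' counts in the shallow library, 4 to 34, limit what it can show.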
